A study of Mus musculus with 2 samples.

Results

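The 8 genes described here, Icam1, Icam2, Vcam1, Sele, Selp, Vwf, Mcam and F11r, encode molecules of the vessel wall that leukocytes and platelets hold on to. On GRCm38 Sele, Selp and F11r lie on chromosome 1, Vcam1 on 3, Vwf on 6, Icam1 and Mcam on 9 and Icam2 on 11. They were chosen by symbol, as the rows with these names in both deposited matrices, and 8 of 8 were found among the 22441 gene symbols of each. The values come from droplet single-cell RNA sequencing of hearts from AC8-overexpressing mice and from wild-type (WT) littermates, both C57/B6 and untreated. AC8, or adenylyl cyclase 8, produces the second messenger cyclic AMP, and the series title places its overexpression in cardiomyocytes. The mice of a genotype were pooled into 1 library. The number of mice, their age and the promoter of the transgene are not given in the sources used here. Leukocytes (CD45 positive), endothelial cells (CD31 positive) and mesenchymal cells (negative for both) had been sorted apart and mixed in equal numbers. The RNA of the sorting proteins, Ptprc (CD45) and Pecam1 (CD31), is therefore given as a check and not as a result. Adcy8 itself had 0 UMIs (unique molecular identifiers, each a counted RNA molecule) in the kept cells of both libraries and could not check the labels.

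The AC8 library held 4867 cells with 11076564 UMIs, and the WT library 5800 cells with 9664932 UMIs. Filtering kept 3578 AC8 cells (median 2324 UMIs) and 3546 WT cells (median 1882 UMIs). Fixed marker genes named 11 classes, each called "like" its type. NK cell-like and Schwann-like cells numbered under 50 in both libraries, and dendritic-like, neutrophil-like and monocyte-like cells in 1 of them, so these are read by their intervals. Each genotype has 1 library, so the genotypes cannot be tested against each other and the text gives ratios without p-values. Levels are UMIs summed over a class and scaled to a class total of 1000000 (CPM). All intervals are exact at 95% and cover counting error only, not differences between mice, cells or preparations. The files number the cells in place of giving their barcodes, so barcodes shared by the libraries could not be counted.

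Leukocytes leave the blood in steps. Selectins on activated endothelium, E-selectin (Sele) and P-selectin (Selp), catch sugar-bearing ligands and let the cells roll. Integrins on the leukocyte then bind immunoglobulin-like ligands on the vessel wall, ICAM-1 and ICAM-2 through LFA-1 and VCAM-1 through VLA-4, and the cells stop. They cross between endothelial cells past junction molecules such as JAM-A (F11r). Mcam (CD146) is an adhesion molecule of endothelial junctions and pericytes. Von Willebrand factor (Vwf) is stored with P-selectin in the Weibel-Palade bodies of endothelial cells and tethers platelets. Sele, Icam1 and Vcam1 are known as genes that inflammatory cytokines switch on through NF-kB, whereas Icam2 and F11r are made by resting endothelium.

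The promoters of 4 of the genes are shown, to set those of Icam1 and Sele beside those of Selp and F11r. The RefSeq table of GRCm38.p6, the assembly called mm10, held 5 of the 8 genes (Mcam is the one not printed). Each sequence runs 5′ to 3′ on the plus strand, from 250 bases before the annotated start to 50 after it. Capitals mark the matches found to GGANNTTCC, the core of an NF-kB site, to TGANTCA, the AP-1 site, and to TATAAA, the TATA box. The promoters of Icam1 (chr9:21015690-21015989), Sele (chr1:164047984-164048283), Selp (chr1:164115014-164115313) and F11r (chr1:171437311-171437610) read as follows.
Icam1: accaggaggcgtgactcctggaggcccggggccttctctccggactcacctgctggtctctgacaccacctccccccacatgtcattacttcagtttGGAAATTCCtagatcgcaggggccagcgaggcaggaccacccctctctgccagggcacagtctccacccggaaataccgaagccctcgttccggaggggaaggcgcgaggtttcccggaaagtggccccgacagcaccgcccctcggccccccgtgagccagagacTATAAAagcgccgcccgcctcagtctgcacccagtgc
Sele: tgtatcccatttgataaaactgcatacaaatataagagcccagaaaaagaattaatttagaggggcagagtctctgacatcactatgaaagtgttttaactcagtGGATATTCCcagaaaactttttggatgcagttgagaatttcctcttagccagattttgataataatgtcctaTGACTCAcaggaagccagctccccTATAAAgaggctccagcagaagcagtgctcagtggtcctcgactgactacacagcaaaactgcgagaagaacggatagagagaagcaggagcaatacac
Selp: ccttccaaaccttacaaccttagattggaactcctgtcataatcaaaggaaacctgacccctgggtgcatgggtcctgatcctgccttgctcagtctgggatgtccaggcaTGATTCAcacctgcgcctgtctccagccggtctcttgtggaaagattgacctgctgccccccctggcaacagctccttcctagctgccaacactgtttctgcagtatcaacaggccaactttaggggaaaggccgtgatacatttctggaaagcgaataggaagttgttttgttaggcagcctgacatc
F11r: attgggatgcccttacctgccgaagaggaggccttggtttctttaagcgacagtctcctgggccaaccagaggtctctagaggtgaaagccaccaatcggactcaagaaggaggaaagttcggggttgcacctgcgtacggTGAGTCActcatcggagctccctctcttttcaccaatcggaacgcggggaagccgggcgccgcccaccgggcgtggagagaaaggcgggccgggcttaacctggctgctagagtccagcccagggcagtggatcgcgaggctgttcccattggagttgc

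Both strands were searched, and positions are counted from the annotated start as 0. Icam1 held GGAAATTCC from -153 to -145 and TATAAA from 13 to 18. GENCODE starts Icam1 further downstream, at 21015985, so both matches lie before the GENCODE start. Sele held GGATATTCC from -145 to -137, TGACTCA from -73 to -67 and TATAAA from -49 to -44. The AP-1 letters also occurred in Selp, as TGATTCA from -139 to -133, and in F11r, as TGAGTCA from -109 to -103. Of all 32851 promoters in the table, 4.26% held GGANNTTCC, 7.81% held TGANTCA and 13.6% held TATAAA. The published NF-kB consensus, searched first and present in 4.51% of all promoters, had no match in the 5 windows, and GGANNTTCC was chosen after the letters had been seen. A match is a run of letters and no measurement of binding.

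The endothelial-like class fitted its label. It held 565 AC8 cells (median 1371 UMIs) and 599 WT cells (median 1299 UMIs), and 10 of 10 endothelial markers were detected in both libraries. Pecam1 stood at 1177 CPM in AC8 and 1156 CPM in WT, and Cdh5, VE-cadherin of the junctions, at 1237 CPM in AC8 and 1592 CPM in WT. Ptprc stood at 7.90 CPM in AC8 and 8.001 CPM in WT. Markers of other cells were present at low levels. The 9 fibroblast markers summed to 705 CPM in AC8 and 714 CPM in WT, and the 5 red cell genes to 712 CPM in AC8 and 2639 CPM in WT.

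The 8 genes did not share a distribution over the heart. Icam2 and F11r were mainly endothelial, Vcam1 RNA was mainly in fibroblast-like cells, Icam1 was highest in macrophage-like and dendritic-like cells, and Mcam was highest in Schwann-like and mural-like cells. The selectins were near the detection limit everywhere. The plot of levels by class shows all 8 genes in the 11 classes.

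**Figure D1:**
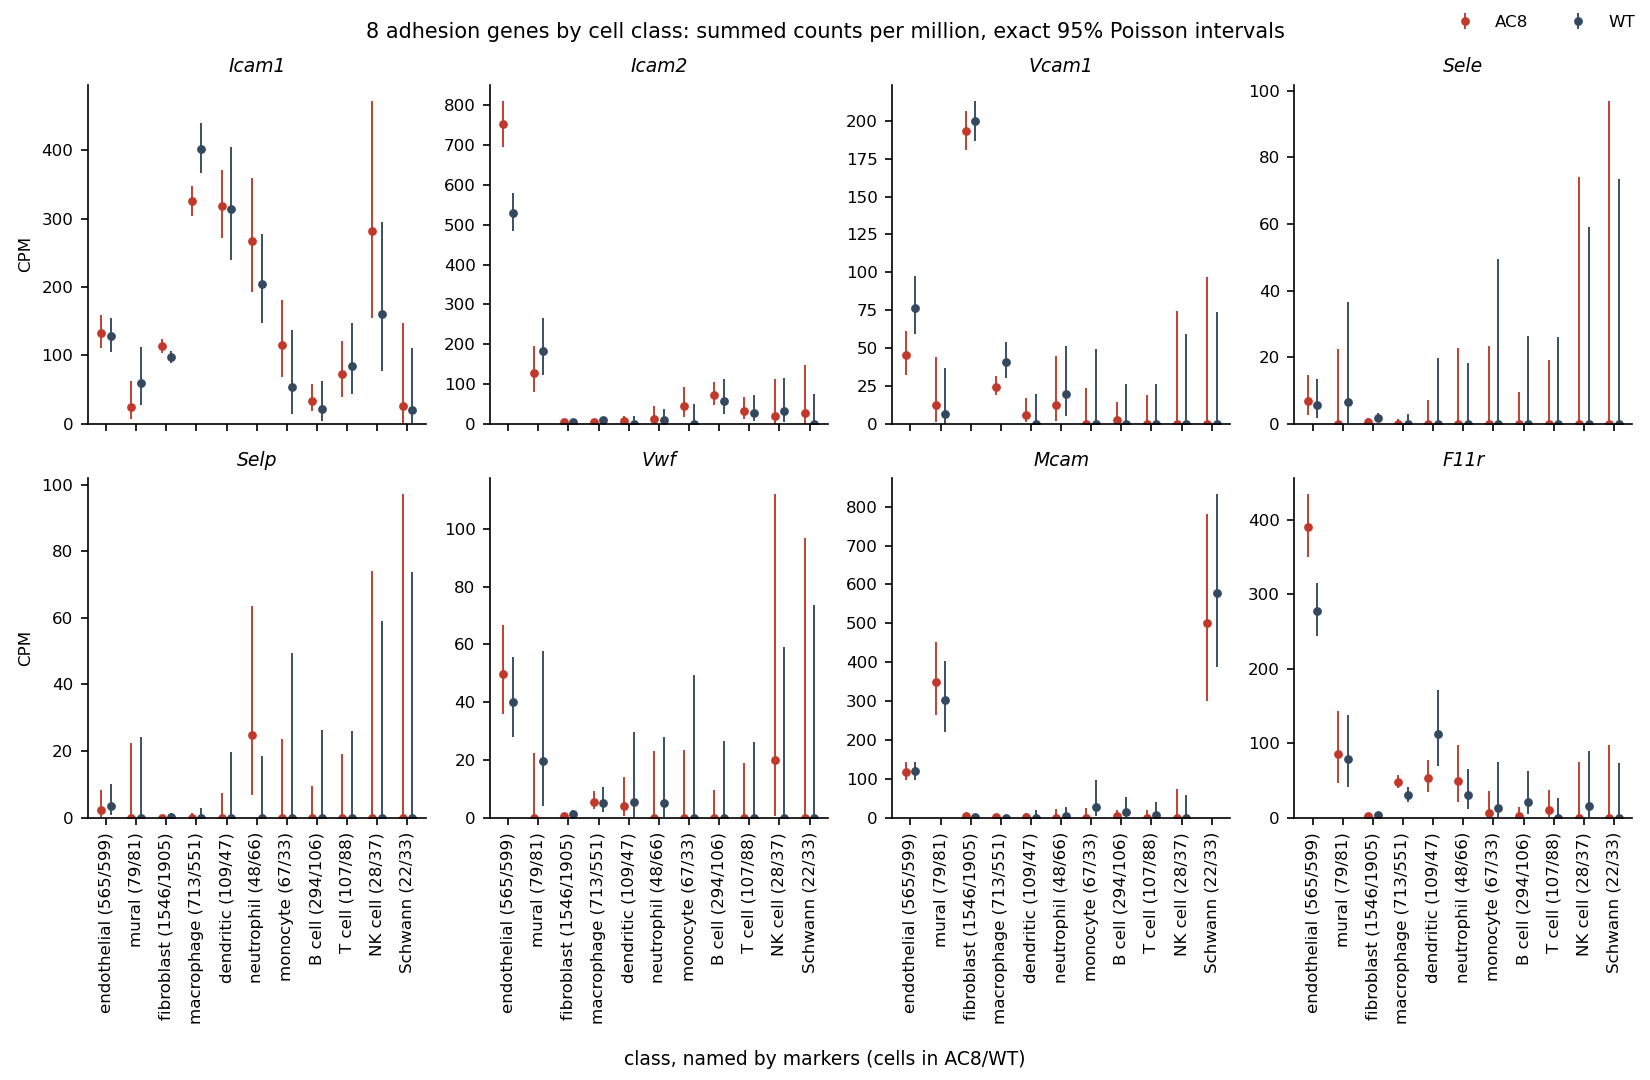
Level of each gene (y axis, CPM, own scale per panel) in 11 marker-named classes (x axis, cells in AC8/WT) of the AC8 library (red, left) and the WT library (grey-blue, right); points are the summed level and bars exact 95% Poisson intervals. Icam2 and F11r peak in endothelial-like cells, Vcam1 in fibroblast-like cells and Icam1 in macrophage-like and dendritic-like cells, and wide bars at 0 belong to classes with few UMIs.

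Icam2, an LFA-1 ligand present on resting endothelium, had 667 UMIs in AC8 endothelial-like cells and 464 in WT ones. These were 87.3% of all its kept UMIs in AC8 and 86.1% in WT. Its level was 753 CPM (697 to 812) in AC8 and 530 CPM (483 to 581) in WT. Mural-like cells, the smooth muscle cells and pericytes around vessels, followed with 128 CPM in AC8 and 184 CPM in WT, and B cell-like cells with 72.7 CPM in AC8 and 57.3 CPM in WT, with intervals that overlapped those of mural-like cells in AC8 and not in WT. In mural-like cells Pecam1 stood beside it at 201 CPM in AC8 and 263 CPM in WT and the 10 endothelial markers summed to 1349 CPM in AC8 and 2305 CPM in WT; their part in the Icam2 value was not tested. Fibroblast-like cells were at 3.60 CPM in AC8 and 4.34 CPM in WT.

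F11r, the junction molecule JAM-A, had the same leading class. It stood at 390 CPM (350 to 434) in AC8 and 278 CPM (244 to 315) in WT endothelial-like cells. Dendritic-like cells had 53.0 CPM in AC8 (27 UMIs) and 112 CPM in WT (21 UMIs). Their ratio of AC8 over WT was 0.47 (0.26 to 0.88), with too few WT cells for the comparison made in larger classes. Macrophage-like cells had 48.3 CPM in AC8 and 30.2 CPM in WT, neutrophil-like cells 49.7 CPM in AC8 and 29.9 CPM in WT, and mural-like cells 85.5 CPM in AC8 and 78.8 CPM in WT. The endothelial-like interval lay clear of those of all 10 other classes in both libraries, while that of mural-like cells overlapped those of dendritic-like and neutrophil-like cells. Fibroblast-like cells were at 1.80 CPM in AC8 and 3.43 CPM in WT.

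Vcam1, the VLA-4 ligand, was mostly not endothelial at the RNA level. Fibroblast-like cells held 859 of its 969 UMIs in AC8 (88.7%) and 873 of its 995 in WT (87.7%). Their level was 193 CPM (181 to 207) in AC8 and 200 CPM (187 to 213) in WT. Endothelial-like cells followed with 45.1 CPM in AC8 and 76.6 CPM in WT, and macrophage-like cells with 24.4 CPM in AC8 and 40.8 CPM in WT. T cell-like cells had 0 UMIs in both libraries; 3 counts, the limit that a count of 0 allows, would be 15.5 CPM in AC8 and 21.2 CPM in WT.

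Icam1, the cytokine-induced LFA-1 ligand, was spread over many classes. Macrophage-like cells held 48.2% of its UMIs in AC8 and 42.1% in WT, at 325 CPM (303 to 348) in AC8 and 402 CPM (367 to 439) in WT. Dendritic-like cells were at 318 CPM in AC8 (162 UMIs) and 314 CPM in WT (59 UMIs). Neutrophil-like cells were at 267 CPM in AC8 (43 UMIs) and 204 CPM in WT (41 UMIs). The 9 macrophage markers summed to 13532 CPM in AC8 and 11164 CPM in WT in neutrophil-like cells, and to 20519 CPM in AC8 and 18897 CPM in WT in macrophage-like cells; their part in the Icam1 and F11r values of neutrophil-like cells was not tested. Endothelial-like cells, at 133 CPM (110 to 159) in AC8 and 128 CPM (105 to 154) in WT, held 6.87% of its UMIs in AC8 and 9.59% in WT. Fibroblast-like cells were at 113 CPM in AC8 and 97.2 CPM in WT, with intervals that overlapped the endothelial ones in AC8 and in WT. B cell-like cells were lowest among leukocytes, with 33.8 CPM in AC8 and 21.5 CPM in WT, and T cell-like cells had 72.2 CPM in AC8 and 84.7 CPM in WT. NK cell-like cells had 282 CPM (154 to 472) in AC8 and 160.2 CPM (76.8 to 295) in WT, with an interval that overlapped the macrophage-like one in AC8 and not in WT.

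Mcam was a gene of vessel walls and glia. Schwann-like cells, only 22 in AC8 and 33 in WT, had 500 CPM (301 to 781) in AC8 and 579 CPM (388 to 831) in WT. Mural-like cells had 348 CPM (264 to 451) in AC8 and 302 CPM (221 to 403) in WT. Endothelial-like cells had 117 CPM (95.9 to 142) in AC8 and 119 CPM (97.1 to 144) in WT, below both without overlap in either library, whereas the Schwann-like and mural-like intervals overlapped. Fibroblast-like cells were at 3.15 CPM in AC8 and 2.06 CPM in WT. An antisense gene model, Gm10687, overlaps Mcam, and the sources used here do not say whether strand was used in counting. The same holds for Icam1 (Gm47079), Vcam1 (Gm43109) and Selp (Gm16587 and Gm16548).

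Vwf was sparse in these cells. Endothelial-like cells held 44 of its 63 UMIs in AC8 and 35 of its 51 in WT, at 49.6 CPM (36.1 to 66.7) in AC8 and 40.004 CPM (27.9 to 55.6) in WT. Macrophage-like cells had 14 UMIs in AC8 and 6 in WT, at 5.50 CPM in AC8 and 4.90 CPM in WT. Among the 6 platelet markers only Pf4, Ppbp and Itga2b had UMIs in endothelial-like cells, and Gp9, Gp1bb and Treml1 were at 0 in both libraries.

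The selectins could hardly be measured. Sele had 8 UMIs in AC8 and 13 in WT over all kept cells. Of these, 6 in AC8 and 5 in WT lay in endothelial-like cells, from 2 AC8 cells and 3 WT cells. The 2 AC8 and 7 WT UMIs in fibroblast-like cells all fell in the cluster led by Igfbp3, Cytl1 and Mmp3, where Pecam1 had 12.6 CPM in AC8 and 56.9 CPM in WT. Selp had 6 UMIs in AC8 and 4 in WT. The endothelial-like cells held 2 in AC8 and 3 in WT, and neutrophil-like cells 4 in AC8 and 0 in WT. At these counts no difference between the libraries was detectable for either selectin.

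After each cell was thinned to 1000 UMIs, so that depth no longer differed between cells, 50.1% of AC8 and 36.6% of WT endothelial-like cells had an Icam2 UMI (62.8% in AC8 and 50.3% in WT unthinned). For F11r the thinned shares were 30.3% in AC8 and 23.5% in WT. Icam1 was detected in 9.38% of AC8 and 9.18% of WT cells, Mcam in 9.38% of AC8 and 11.02% of WT cells, Vwf in 2.83% of AC8 and 3.01% of WT cells, and Vcam1 in 1.42% of AC8 and 2.50% of WT cells. In fibroblast-like cells, taken as a class that should lack Icam2, the thinned Icam2 share was 0.388% in AC8 and 0.368% in WT. The source of these UMIs, such as free RNA, was not tested. The median depth of fibroblast-like cells before thinning was 2745 UMIs in AC8 and 2161 UMIs in WT.

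**Figure D2:**
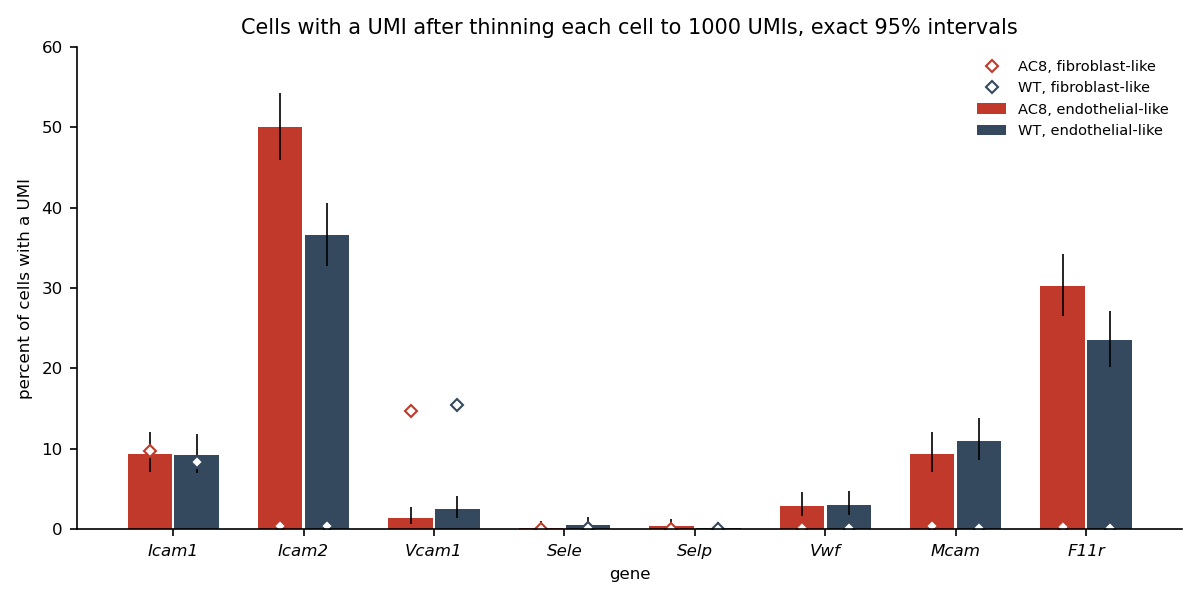
Percent of cells with a UMI (y axis) for each gene (x axis) after thinning every cell to 1000 UMIs, in endothelial-like cells of AC8 (red bars, left) and WT (grey-blue bars, right) with exact 95% Clopper-Pearson intervals; open diamonds are fibroblast-like cells. Icam2 reaches 50.1% in AC8 and 36.6% in WT, while Vcam1 is the gene whose fibroblast-like share, 14.7% in AC8 and 15.4% in WT, lies far above the endothelial one.

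Single endothelial-like cells rarely showed several of the genes at this depth. After thinning, none of the 8 was seen in 28.7% of AC8 and 37.1% of WT cells, 1 in 45.3% of AC8 and 43.7% of WT cells, and 2 in 20.9% of AC8 and 15.4% of WT cells. Icam2 and F11r share their leading class, and F11r was detected about as often in cells with Icam2 as in cells without it. F11r was seen in 31.1% of AC8 cells with Icam2 and in 29.4% of those without it, and in 23.7% of WT cells with Icam2 and in 23.4% of those without it. Icam2 was seen in 56.6% of the 53 AC8 cells with Icam1 and 49.4% of those without it, and in 43.6% of the 55 WT cells with Icam1 and 35.8% of those without it. At deposited depth these shares were 62.5% and 62.9% in AC8, and 56.5% and 49.4% in WT. After thinning, F11r was seen in 18.9% of AC8 cells with Icam1 and 31.4% of those without it, and in 21.8% of WT cells with Icam1 and 23.7% of those without it. Unthinned, the F11r shares were 43.1% with Icam1 and 43.6% without it in AC8, and 27.5% and 32.8% in WT. The AC8 difference was thus seen only after thinning. Cells are not replicates, and these shares were not tested.

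Within the endothelium the genes separated into those present in every subtype and those gathered in a small group of cells. Clustering without the 8 genes gave 10 subclusters, of which 3 could be named from their markers. Subclusters 0 and 3 were capillary-like, the first led by hemoglobin genes beside Aqp1 and Car4, and subcluster 4 was arterial-like (Fbln5, Sema3g). The red cell genes of subcluster 0 summed to 19.7 CPM in AC8 and 6455 CPM in WT. Those of subcluster 3 summed to 7167 CPM in AC8 and 43.9 CPM in WT. Each held cells of both libraries, 108 AC8 and 160 WT in subcluster 0 and 59 AC8 and 103 WT in subcluster 3. Each therefore pairs cells rich in red cell RNA from 1 library with cells poor in it from the other. The 2 groups should be read together, since a ratio within either compares cells that differ in red cell RNA. The others go by their leading genes. Subcluster 8 (19 AC8 and 15 WT cells) had Igfbp5, Plvap and Npr3 among its 10 leading genes, with 2 venous and 2 endocardial markers among them, and stayed unnamed.

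Among subclusters of over 12 cells, Icam2 was highest in the arterial-like one, at 1115 CPM (937 to 1316) in 68 AC8 cells and 728 CPM (515 to 1000) in 28 WT cells. The capillary-like subclusters were at 683 CPM in AC8 and 402 CPM in WT (subcluster 0) and at 815 CPM in AC8 and 666 CPM in WT (subcluster 3, with intervals that overlapped the arterial-like ones). The lowest level was in subcluster 6, led by the stress genes Hsph1 and Fosb, with 255 CPM in AC8 and 214 CPM in WT. F11r stood at 445.8 CPM in AC8 and 404 CPM in WT in subcluster 2 (Rbp7, Cxcl12), and 385 CPM in AC8 and 230.0 CPM in WT in arterial-like cells. Its lowest WT level was 117 CPM, in subcluster 8. Its levels in subcluster 7, led by the interferon-induced Ifit3 and Isg15, were 630.4 CPM (415 to 917) in 28 AC8 cells and 470.4 CPM (153 to 1098) in 9 WT cells. Mcam was low in capillary-like subcluster 0, with 26.3 CPM in AC8 and 58.0 CPM in WT. It was higher in subcluster 5, led by Mest and the angiogenic peptide gene Apln, with 224 CPM in AC8 and 189 CPM in WT, and in subcluster 2, with 206 CPM in AC8 and 160 CPM in WT.

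**Figure D3:**
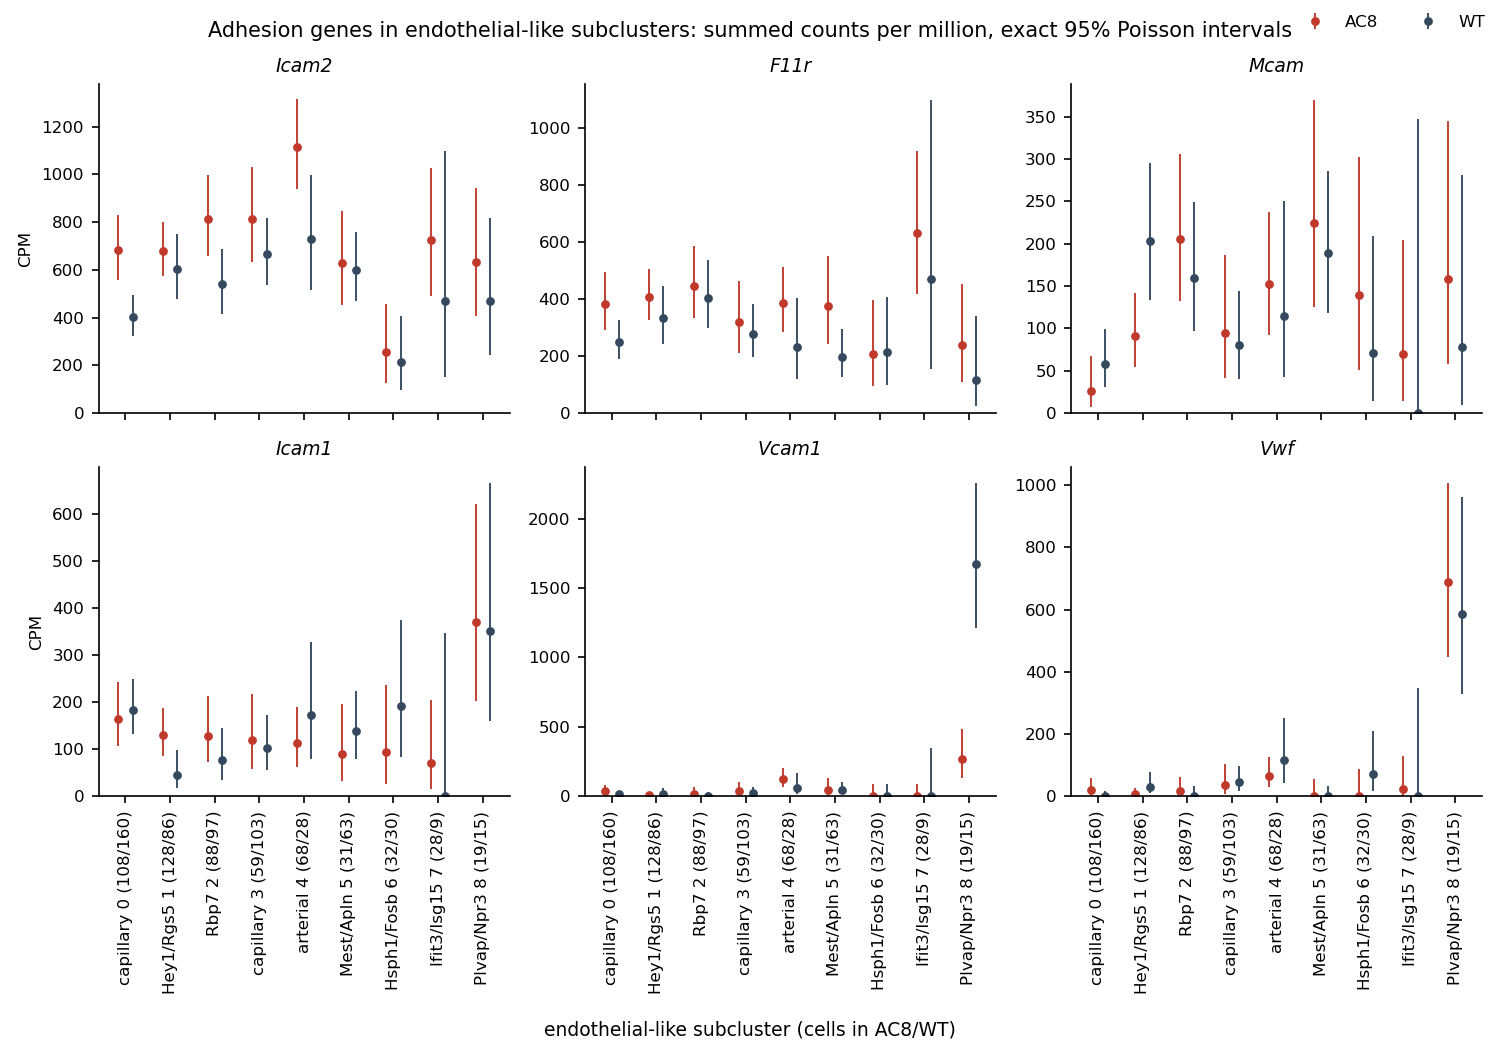
Level (y axis, CPM, own scale per panel) of 6 of the genes in 9 of the 10 endothelial-like subclusters (x axis, named by type or leading genes, cells in AC8/WT), AC8 in red on the left and WT in grey-blue on the right, with exact 95% Poisson intervals; the smallest subcluster, of 12 cells with fibroblast genes, is not drawn. Icam2 and F11r are found throughout, whereas Vwf and Vcam1 stand out in subcluster 8, where Vwf reaches 687 CPM in AC8 and 584 CPM in WT.

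Vwf and Icam1 stood highest in subcluster 8. These cells made up 3.36% of AC8 and 2.50% of WT endothelial-like cells and held 26 of 44 Vwf UMIs in AC8 (59.1%) and 15 of 35 in WT (42.9%), at 687 CPM (449 to 1007) in AC8 and 584 CPM (327 to 964) in WT. The arterial-like subcluster followed with 64.2 CPM in AC8 and 115 CPM in WT. Icam1 reached 370.1 CPM (202 to 621) in AC8 and 351 CPM (160 to 666) in WT, and both intervals lay above those of the whole class. That did not hold for WT when all deposited cells were clustered, where the matching group of 26 AC8 and 26 WT cells had Icam1 at 255 CPM in AC8 (12 UMIs) and 90.3 CPM in WT (3 UMIs), beside 126 CPM in AC8 and 106 CPM in WT over the class. Vwf was at 467 CPM in AC8 and 391 CPM in WT in that group, beside 46.2 CPM in AC8 and 31.7 CPM in WT over the class. The few selectin UMIs were partly there too. Subcluster 8 held 4 of 6 Sele UMIs in AC8 and 1 of 5 in WT, and 1 of 2 Selp UMIs in AC8 and 3 of 3 in WT. Vcam1 had 264 CPM (127 to 486) in AC8 (10 UMIs) and 1675 CPM (1212 to 2257) in WT (43 UMIs) there. F11r was at 238 CPM in AC8 and 117 CPM in WT, with intervals that overlapped those of the whole class in both libraries.

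The Vcam1 values in subcluster 8 leaned on single cells. It had a Vcam1 UMI in 2 of 19 AC8 cells and 7 of 15 WT cells. Without the cell with the most Vcam1 UMIs in each library, a choice made after the values had been seen, it stood at 83.6 CPM (17.3 to 244) in AC8 (3 UMIs) and 512 CPM (265 to 894) in WT (12 UMIs). The matching group had 264 CPM in AC8 (10 UMIs) and 382 CPM in WT (8 UMIs) when doublets were kept, and 234 CPM in AC8 (11 UMIs) and 211 CPM in WT (7 UMIs) when all deposited cells were clustered. The top WT cell had 31 Vcam1 UMIs among its 2226, which is 46.3% of the 67 Vcam1 UMIs of all WT endothelial-like cells, and it also had 18 UMIs of endothelial markers and 2 of fibroblast markers. In AC8 the endothelial-like cell with the most Vcam1 UMIs was arterial-like and had 8 of 40. Outside subcluster 8, Vcam1 stood at 35.4 CPM in AC8 (30 UMIs) and 28.3 CPM in WT (24 UMIs). The arterial-like subcluster held 15 of these in AC8 and 3 in WT.

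**Figure D4:**
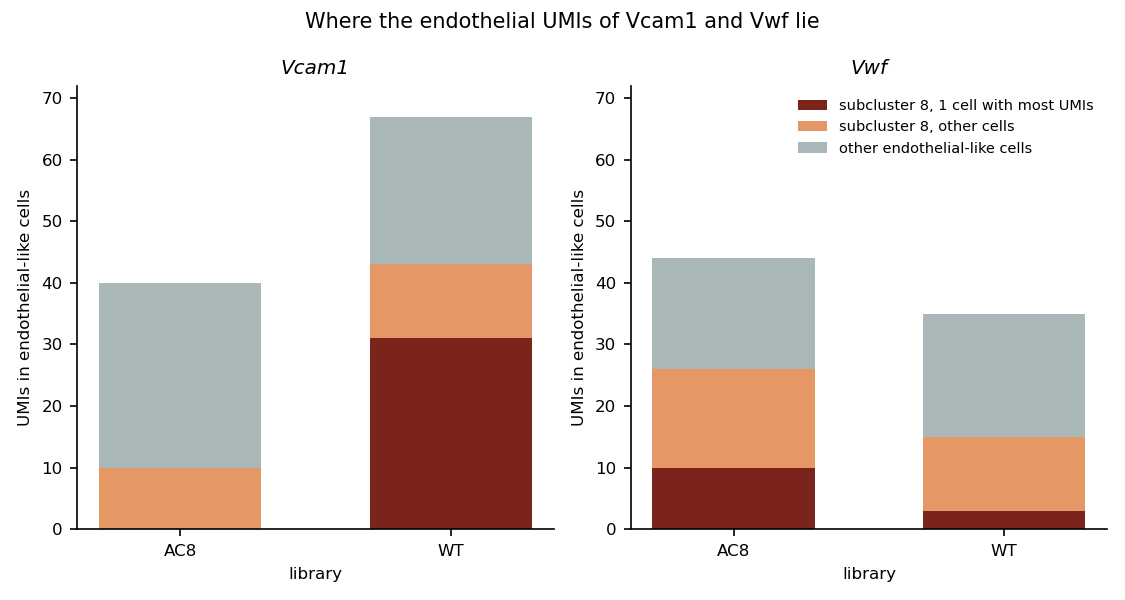
UMIs of Vcam1 (left panel) and Vwf (right panel) in the endothelial-like cells of each library (y axis, UMIs; AC8 bar left of WT bar), divided into the cell of subcluster 8 with the most UMIs where the top cell of the library lies there, the other cells of subcluster 8 and all other endothelial-like cells. Of the 67 Vcam1 UMIs in WT, 31 come from 1 cell, and Vwf UMIs of subcluster 8 number 26 in AC8 and 15 in WT.

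The comparison of AC8 with WT endothelium asked whether the vessel wall carried more adhesion molecule RNA in the hearts with AC8 overexpression, since the series title speaks of myocardial inflammation. Over the whole class the cytokine-induced members were not higher in AC8 beyond counting error. The genes that were higher beyond it were Icam2 and F11r, which resting endothelium makes. Of the 8 genes, 6 had at least 30 summed UMIs and were called measured, 4 of them higher and 2 lower in AC8, and 0 were past 2-fold; 0.932% of the 7185 measured genes of the class were past 2-fold in either direction. The median log2 ratio was 0.15 over the 6 genes and -0.01 over all measured genes. A ratio in such sums cannot separate more RNA per cell from a different mix of cells within the class.

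Icam2 was 1.42 times as high in AC8 (1.26 to 1.601) and F11r 1.41 times (1.19 to 1.66). An interval above 1 was found for 9.05% of the measured genes of the class, and 2 of the 6 members had one. Both genes were detected in more cells of AC8, as the thinned shares above show. Icam2 was higher in AC8 in 10 of 10 subclusters and F11r in 9 of 10, although the subclusters come from the same 2 libraries and are not replicates. For Icam2 the ratio was 1.46 (1.17 to 1.80) in the capillary-like subclusters together and 1.53 (1.06 to 2.25) in arterial-like cells. It was 1.70 (1.27 to 2.28) in subcluster 0 and 1.22 (0.88 to 1.69) in subcluster 3. Within each of these 2 subclusters the libraries differ in red cell RNA, as described above, so neither ratio compares like cells. Pecam1 was 1.02 times as high in AC8 (0.93 to 1.11), and Cdh5 was lower in 10 of 10 subclusters, at 0.78 times the WT level over the class (0.72 to 0.84).

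The minimum of 1000 UMIs removed 46.6% of AC8 and 65.7% of WT endothelial-like cells, when all deposited cells were clustered and named in the same way. In the removed cells, 490 of AC8 and 1096 of WT, Icam2 stood at 776 CPM in AC8 and 578 CPM in WT, a ratio of 1.34 (1.15 to 1.56). F11r stood there at 389.6 CPM in AC8 and 365 CPM in WT, a ratio of 1.07 (0.86 to 1.31). The Icam2 ratio therefore had an interval above 1 on both sides of the minimum, and the F11r ratio only above it.

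Icam1, Mcam and Vwf differed by less than counting error between the libraries. Icam1 was at 1.04 times the WT level (0.80 to 1.36), Mcam at 0.99 times (0.74 to 1.31) and Vwf at 1.24 times (0.78 to 1.99). The upper ends of the Icam1 and Mcam intervals lay just under the Icam2 ratio, and that of Vwf above it. Over the 10 subclusters Icam1 was higher in AC8 in 5 and lower in 4, with no UMI in 1. The one ratio with an interval that left out 1, among the 7 subclusters with at least 20 cells in each library, was in subcluster 1, led by Cox4i2, Hey1 and Rgs5, with 129 CPM in AC8 (27 UMIs) and 45.2 CPM in WT (6 UMIs), a ratio of 2.86 (1.16 to 8.47). Mcam was lower there with 91.0 CPM in AC8 and 203 CPM in WT (ratio 0.45, 0.24 to 0.83).

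Vcam1 was lower in the whole class, with 45.1 CPM in AC8 and 76.6 CPM in WT, a ratio of 0.59 (0.39 to 0.88). An interval below 1 was found for 10.1% of measured genes. The direction turned when subcluster 8 was left out, to a ratio of 1.25 (0.71 to 2.24), a choice made after the values had been seen. In all deposited endothelial-like cells it was 36.5 CPM in AC8 and 41.7 CPM in WT, a ratio of 0.87 (0.59 to 1.29).

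**Figure D5:**
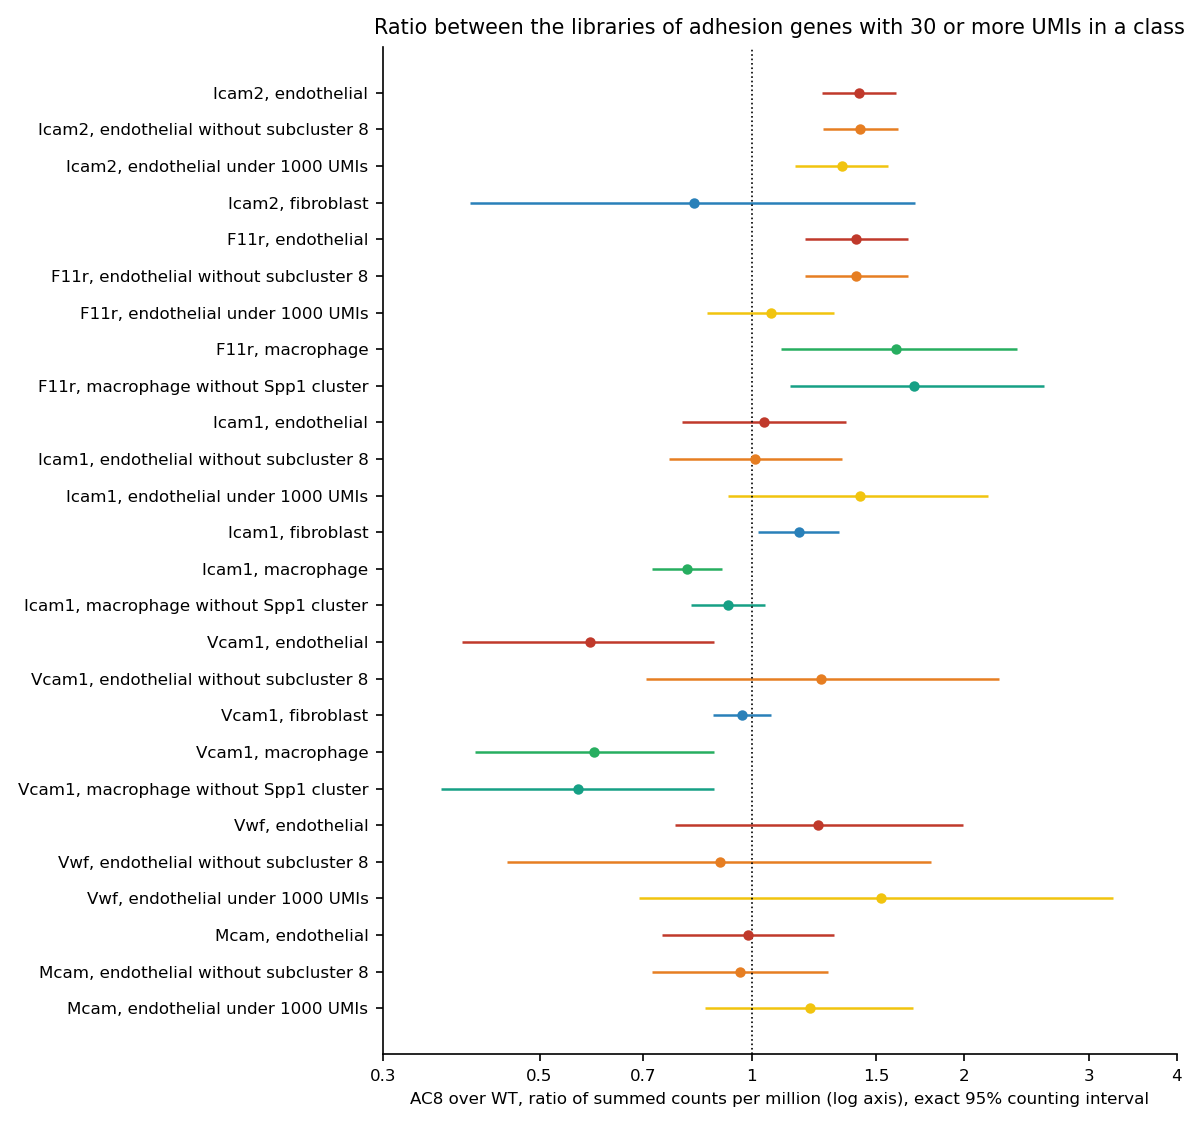
Ratio of CPM in AC8 over WT (x axis, log scale) with exact 95% counting intervals for genes with at least 30 summed UMIs. On the y axis are endothelial-like, fibroblast-like and macrophage-like cells and selections of these, and the dotted line marks 1. Other classes are not drawn. Icam2 in endothelial-like cells lies right of 1 in all 3 selections, whereas Vcam1 changes side once subcluster 8 is left out.

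Outside the endothelium, 3 classes had at least 100 cells in each library. In fibroblast-like cells (1546 in AC8 and 1905 in WT) 3 of the 8 genes were measured. Icam1 was 1.16 times as high in AC8 (1.02 to 1.33), where 14.4% of measured genes had an interval above 1. Vcam1 was at 0.97 times the WT level (0.88 to 1.06). Icam2, with only 16 UMIs in AC8 and 19 in WT, was at 0.83 times (0.40 to 1.70). None of the 3 was past 2-fold, as were 0.282% of measured genes. The fibroblast-like clusters differed among themselves. In the cluster led by Cxcl14 and Smoc2, Icam1 stood at 117 CPM in AC8 and 75.5 CPM in WT (ratio 1.55, 1.23 to 1.97). In the one led by Mfap4 and Cilp it stood at 104 CPM in AC8 and 121 CPM in WT (ratio 0.86, 0.69 to 1.07). Vcam1 was higher in AC8 in the cluster led by Igfbp3 and Cytl1, with 341 CPM in AC8 and 251 CPM in WT (ratio 1.36, 1.08 to 1.71), and lower in the Mfap4 cluster, with 152 CPM in AC8 and 183 CPM in WT (ratio 0.83, 0.70 to 0.997). The cluster led by Cd248 and Pi16 had the lowest Vcam1, with 90.3 CPM in AC8 and 99.5 CPM in WT. Differences between clusters were not tested.

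In macrophage-like cells (713 in AC8 and 551 in WT) 3 of the 8 genes were measured. Icam1 was at 0.81 times the WT level (0.72 to 0.91), Vcam1 at 0.60 times (0.40 to 0.88) and F11r at 1.599 times (1.10 to 2.38). Here 18% of measured genes had an interval below 1 and 15% one above it, and 1.9% were past 2-fold, none of them a member. The class differed in its make-up, because the cluster led by Spp1 and Lgals3 held 156 AC8 cells and 13 WT cells. Without it, Icam1 stood at 383 CPM in AC8 and 415 CPM in WT (ratio 0.92, 0.82 to 1.04), Vcam1 at 23.3 CPM in AC8 and 41.1 CPM in WT (ratio 0.57, 0.36 to 0.88) and F11r at 50.8 CPM in AC8 and 29.98 CPM in WT (ratio 1.70, 1.13 to 2.59). F11r lay mainly in the cluster with high MHC class II genes (H2-Eb1, Cd74), with 89.8 CPM in AC8 and 52.4 CPM in WT (ratio 1.71, 1.11 to 2.69). In B cell-like cells (294 in AC8 and 106 in WT) only Icam2 was measured, and its ratio was 1.27 (0.56 to 3.22), while 5.4% of measured genes of that class were past 2-fold.

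Partner molecules on leukocytes include genes past 2-fold. Of 14 integrin and selectin-ligand genes, 11 were measured in macrophage-like cells, 7 higher and 4 lower in AC8. The median log2 ratio was 0.12 over the 11 genes and -0.03 over all measured genes of the class. Of all measured genes of the class, 47.5% were higher in AC8 and 1.9% were past 2-fold in either direction. Itgax, the CD11c chain, stood at 62.1 CPM in AC8 and 15.5 CPM in WT (ratio 4.001, 2.48 to 6.82) and was past 2-fold. Itgb2, the shared chain of the receptors that bind ICAMs, stood at 324 CPM in AC8 and 187 CPM in WT (ratio 1.73, 1.496 to 2.02). Itga4, a chain of the VCAM-1 receptor, stood at 89.98 CPM in AC8 and 153 CPM in WT (ratio 0.59, 0.48 to 0.72). Without the Spp1 cluster, a leave-out chosen after seeing the data, the ratio was 1.43 (0.797 to 2.68) for Itgax, 1.35 (1.14 to 1.61) for Itgb2 and 0.72 (0.58 to 0.89) for Itga4. In B cell-like cells 3 of 6 measured genes were higher, and Itgb7 was past 2-fold with 203 CPM in AC8 and 93.1 CPM in WT (ratio 2.18, 1.202 to 4.27). Among all measured genes of that class 47.7% were higher and 5.4% past 2-fold in either direction. In T cell-like cells (107 in AC8 and 88 in WT, fewer than the 100 required for the 8 genes) 3 of 8 were higher and 0 past 2-fold. All measured genes there were higher in 50.3% and past 2-fold in 5.29%. Glg1 in B cell-like cells, at 67.6 CPM in AC8 and 93.1 CPM in WT, had an interval that included 1. In endothelial-like cells 4 were measured, and 1 of them, Itgb1, had an interval below 1, with 651 CPM in AC8 and 917 CPM in WT (ratio 0.71, 0.64 to 0.79). The intervals of Cd44, Cd24a and Glg1 included 1.

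The lists that follow are read beside all measured genes of endothelial-like cells, of which 47.7% were higher and 52.3% lower in AC8. Of 12 other junction molecules measured, 4 were higher and 8 lower in AC8 (median log2 ratio -0.08). The interval lay below 1 for 4 of them (Jam3, Tjp1, Cdh5 and Podxl) and above 1 for 1, Cd34, at 633 CPM in AC8 and 530.3 CPM in WT (ratio 1.19, 1.05 to 1.35). Jam3, a relative of F11r, was past 2-fold lower with 40.6 CPM in AC8 and 92.6 CPM in WT (ratio 0.44, 0.29 to 0.66). Tjp1, the junction scaffold ZO-1, stood at 327 CPM in AC8 and 522 CPM in WT (ratio 0.63, 0.54 to 0.73), and Cd99l2 at 32.7 CPM in AC8 and 21.7 CPM in WT with an interval that included 1. Of 9 measured linkers between adhesion receptors and actin, 5 were higher and 4 lower, with Actn4 at 876 CPM in AC8 and 698 CPM in WT (ratio 1.25, 1.13 to 1.40) and Tln1 at 220.0 CPM in AC8 and 275 CPM in WT (ratio 0.80, 0.66 to 0.97).

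Genes of Weibel-Palade bodies, the store of Vwf and P-selectin, were measured for 7 of 15, 2 higher and 5 lower in AC8. Edn1, the vasoconstrictor endothelin-1, was past 2-fold higher with 121 CPM in AC8 and 46.9 CPM in WT (ratio 2.58, 1.78 to 3.79). Plat, tissue plasminogen activator, stood at 122 CPM in AC8 and 96.0 CPM in WT (ratio 1.27, 0.95 to 1.71). Of 6 measured enzymes that build selectin ligands, 2 were higher and 4 lower, and B4galt1, St3gal6 and Tpst1, those with the largest ratios in size, had intervals that included 1.

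Genes that induce or relay endothelial activation divided evenly, 7 higher and 7 lower of 14 measured, with a median log2 ratio of -0.02. The interval lay above 1 for Nfkbia, the inhibitor of NF-kB, at 944 CPM in AC8 and 741 CPM in WT (ratio 1.28, 1.15 to 1.41), and below 1 for Nfkbiz, an NF-kB-induced regulator, with 150 CPM in AC8 and 232 CPM in WT (ratio 0.65, 0.52 to 0.81). Tnfaip3, which limits NF-kB signalling, at 16.9 CPM in AC8 and 29.7 CPM in WT, and the TNF receptor gene Tnfrsf1b, at 15.8 CPM in AC8 and 25.1 CPM in WT, had intervals that included 1. Of other cytokine-induced genes 6 of 14 were measured, 4 higher and 2 lower. Socs3, a feedback inhibitor of cytokine signals, was at 996 CPM in AC8 and 606 CPM in WT (ratio 1.64, 1.48 to 1.84), and the chemokine gene Cxcl1 at 36.1 CPM in AC8 and 60.6 CPM in WT (ratio 0.60, 0.37 to 0.94). Among 7 measured genes of quiescent, antithrombotic endothelium 5 were higher and 2 lower. Entpd1, the ectoenzyme CD39 that breaks down ATP and ADP, stood at 103 CPM in AC8 and 67.4 CPM in WT (ratio 1.52, 1.09 to 2.15), and Cd55, which restrains complement, at 15.8 CPM in AC8 and 38.9 CPM in WT (ratio 0.41, 0.20 to 0.78). Of genes that cell dissociation can induce, all 20 were measured, 15 higher and 5 lower in AC8 with a median log2 ratio of 0.20. The interval lay above 1 for 14 of them, led by Ier3 at 1038 CPM in AC8 and 486 CPM in WT (ratio 2.14, 1.90 to 2.40) and Nr4a1 at 345 CPM in AC8 and 191 CPM in WT (ratio 1.81, 1.49 to 2.20). It lay below 1 for 4, Dnaja1 (ratio 0.72), Fosb (0.84), Hsp90aa1 (0.87) and Btg2 (0.88). The part of dissociation in the ratios of Icam2, F11r and Socs3, which is on this list too, was not tested.

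Over 28 profiles of at least 50 cells per class or 20 per endothelial subcluster and library, the patterns of log2(CPM + 10) most like those of the genes were as follows. Icam2 went with Pecam1 (Pearson r 0.98), Sox18 (0.96) and Esam (0.95), and F11r with Palmd (0.95), Cav2 (0.95) and Cmtm8 (0.95). Mcam went with Pcp4l1 (0.93), Actn4 (0.93) and Tsc22d1 (0.92), and Icam1 with Lipa (0.83), Gusb (0.77) and Pltp (0.75). Vcam1 and Vwf had looser companions, Dbn1 (0.79), Hsp90b1 (0.75) and Il11ra1 (0.74) for Vcam1 and Nuak1 (0.76), Ahsa2 (0.72) and Cd2ap (0.71) for Vwf. Among the genes themselves r was 0.88 between Icam2 and F11r, 0.83 between Icam2 and Mcam and -0.20 between Icam1 and Icam2. The profiles share 2 libraries, and 15 of them are endothelial subclusters, so these values describe likeness and carry no test.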

How the data were processed

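The deposited values are UMI counts of single cells. Per the labels' protocols they were made with Cell Ranger, and the submitters' processing notes name the build mm10. The Cell Ranger version and any filter by the authors are not given in the sources used here, and the lowest deposited cell total was 500 UMIs. Cells were kept with at least 1000 UMIs, 500 genes and at most 10% mitochondrially encoded UMIs. Too few UMIs or genes removed 1126 of 4867 AC8 cells and 2066 of 5800 WT cells, and the mitochondrial limit 18 AC8 and 15 WT cells. The cells most like simulated doublets, at a rate of 0.8% per 1000 cells, were removed next, 145 in AC8 and 173 in WT.

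Logged counts, scaled to 10000 in each cell, were used for clustering. The 2000 most variable genes, without the 8 described, were reduced to 30 components and partitioned with the Leiden algorithm (15 neighbours, resolution 1). Endothelial-like cells were partitioned again with 1000 genes and 15 components. A cluster took the type whose markers stood highest in it, if at least 3 were detected in 10% of its cells and its 10 leading genes did not favour another type. A subcluster also needed 2 of its own markers among those genes. Cardiomyocyte and red cell markers, which belong to no sorted fraction, named no cluster, and the naming rule was settled after a first look at the clusters. All 21 clusters were named.

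Raw counts were summed per library and class. Intervals are exact Poisson for CPM, Clopper-Pearson for shares and the conditional binomial form for ratios, and treat UMIs as independent. Log2 ratios add 10 CPM, and a gene with 30 summed UMIs was called measured. The 8 genes were compared in classes with 100 cells in each library, and the leukocyte integrin list also in T cell-like cells. Open to naming were the 8 genes, from each list the 3 largest log2 ratios among measured genes and any past 2-fold, and for each of the 8 with 100 kept UMIs the 3 genes with the highest correlation. The ratio computation was tested on simulated data. The members and lists were chosen with earlier results of these data known. Clustering used leidenalg 0.10.2, igraph 0.11.9 and scikit-learn 1.9.0; intervals used scipy 1.17.1; figures used matplotlib 3.10.9. All ran under Python 3.11.15 with pandas 2.3.3 and numpy 2.4.6. Sequences are from RefSeq and gene overlaps from GENCODE on GRCm38.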

Additional observations from a re-analysis of the deposited data

Results flagged for a closer look

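Of the genes measured in both fibroblast-like and macrophage-like cells, Icam1 was the one whose intervals lay on opposite sides of 1. It was 1.164 times as high in AC8 as in WT in fibroblast-like cells and 0.8087 times in macrophage-like cells. With 1 library per genotype the difference between the classes was not tested. Without the macrophage-like cluster led by Spp1, of 156 AC8 and 13 WT cells, the macrophage-like ratio was 0.92 (0.82 to 1.04), and within fibroblast-like cells the ratio lay above 1 in the Cxcl14 cluster (1.55) and below it in the Mfap4 cluster (0.86).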

How the results depend on the processing

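For each gene the endothelial-like log2 ratio of AC8 over WT was recomputed under 11 alternatives, which are not independent checks. A Leiden resolution of 1.6 and clustering with the 8 genes included returned the same 565 AC8 and 599 WT cells, so these ratios could not differ. Without doublet removal the class held 564 AC8 and 605 WT cells. A pseudocount of 1 CPM, centring on the median gene and leaving out mitochondrial and ribosomal protein genes reused the same counts. Icam2 (0.46 to 0.54) and F11r (0.27 to 0.60) were positive in 11 of 11. The ratios of Sele, Selp, Vwf and Mcam stayed within counting error of the value reported, although each took both signs. Icam1 was -0.63 with a minimum of 2000 UMIs and 1000 genes, which left 85 AC8 and 70 WT cells, and Vcam1 was -1.59 there. Vcam1 was -0.15 in all deposited cells. It turned positive in capillary-like subclusters alone (0.72) and without subcluster 8 (0.25), the latter an alternative chosen after seeing the data. The capillary-like value rests on 8 AC8 and 6 WT UMIs, fewer than the 30 required, and its ratio interval (0.62 to 7.10) included 1. Both of these alternatives leave out, by construction, the cell with 31 of 67 WT UMIs, and the cause of the other shifts was not tested. In all deposited cells the WT levels were 41.7 CPM for Vcam1 and 322 CPM for F11r. Thinning to 1000 UMIs lowered the share of cells with a UMI, in AC8 to 9.38% for Icam1, 50.1% for Icam2, 1.42% for Vcam1, 9.38% for Mcam and 30.3% for F11r, and in WT to 36.6% for Icam2, 11.02% for Mcam and 23.5% for F11r, by its construction. Counting every gene with at least 1 UMI, 52 genes were past 2-fold higher and 68 lower, against 28 and 39 of the measured genes. Sele and Selp had too few UMIs for a comparison. No paired analysis was possible because each genotype has 1 library.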

Other observations

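Selplg, the P-selectin ligand PSGL-1, stood at 985 CPM in AC8 and 705 CPM in WT NK cell-like cells and at 2.26 CPM in AC8 and 3.43 CPM in WT endothelial-like cells. Itgal, the LFA-1 chain that binds ICAM-1 and ICAM-2, was highest in NK cell-like cells, at 382 CPM in AC8 and 160 CPM in WT, and monocyte-like cells, at 280.0 CPM in AC8 and 214 CPM in WT. Itga4 was also found outside leukocytes, at 368 CPM in AC8 (14 UMIs) and 499 CPM in WT (25 UMIs) Schwann-like cells. Itgb1, its partner chain, was highest in Schwann-like cells, at 1421 CPM in AC8 and 1517 CPM in WT, and stood at 909 CPM in AC8 and 1235 CPM in WT mural-like cells. Vcam1, which the pair binds, had 0 UMIs in Schwann-like cells of both libraries.

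Neutrophil-like cells held 4 of the 6 Selp UMIs of the AC8 library. Of the 6 platelet markers, Pf4 had 243 of the 247 UMIs there in AC8 and 221 of 221 in WT, while Gp9, Gp1bb and Treml1 were at 0 in both libraries. Pf4 stood at 1509 CPM in AC8 and 1101 CPM in WT neutrophil-like cells and at 1617 CPM in AC8 and 1906 CPM in WT macrophage-like cells, so it does not mark platelets alone here. The part of other cells in the Selp counts was not tested.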
